A study of Mus musculus with 4 samples.

Results

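Genes that make nucleotides, one-carbon units and polyamines were followed in T29 cells, a mouse thymic lymphoma line, after exposure to an inhibitor of gamma-secretase. The list held 33 genes, chosen by name for their enzymatic steps, with earlier results of these data known. Of these, 29 had a probe set that the platform annotation pairs with that gene alone, out of 18193 genes measured in this way. Impdh2, Mat2a, Sms and Amd1 had none and were not analysed here as single genes. There were 2 arrays of cells given DMSO, the solvent, and 2 arrays of cells given the gamma-secretase inhibitor MRK003 (GSI), at a dose the labels write as 5 mM for 36 h, a unit that could not be checked. All 4 samples came from the same line in the same medium, and no genotype or further agent was named. Whether the replicates came from different cultures is not stated, so every p-value rests on variation between these arrays, part or all of which may be technical. The arrays are bulk measurements, in which a smaller share of expressing cells and less RNA per cell cannot be told apart for a gene. The values are log2 expression after RMA, with medians of 4.86 to 4.89 per array. Of 12 measured markers of the labelled T lineage, the receptor chain genes Cd3d, Cd3e and Cd3g had means between 10.42 and 12.64 in each group, while Cd2 (4.57 with DMSO and 3.78 with GSI) and Cd5 (3.83 and 4.27) lay in the range of 4 B cell markers, whose means over all arrays ran from 3.65 to 4.98. On limma 2 of the 12 fell with GSI, Ptcra and Cd3g (16.7%), and 4 rose, Thy1, Cd4, Cd247 and Cd8a (33.3%, Cd8a by 1.07). Over all genes limma called 1.56% lower and 2.56% higher. Of 19 markers of B, myeloid, erythroid, stromal and epithelial cells limma called 0, with 1 lower and 3 higher at an unadjusted p under 0.05, a threshold that 10.7% of all genes passed lower and 10.8% higher. As a check of the labels, 8 Notch-dependent T cell genes were read, also chosen with earlier results of these data known. All 8 fell with GSI, Dtx1 and Hes1 among them, against 1.56% of all genes.

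Proliferating lymphoid cells build purine rings on phosphoribosyl pyrophosphate (PRPP) in a long series of steps, and build the pyrimidine ring before PRPP joins it. Folate carries the one-carbon units, drawn largely from serine, that purine and thymidylate synthesis consume. Polyamines are made from ornithine and decarboxylated S-adenosylmethionine, and are needed for translation and growth. Many of these genes are known as targets of the transcription factor Myc, and Myc is itself a target of Notch in T cell leukaemia.

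Most of these synthesis genes had lower means with GSI, by amounts that were mostly small. The means of 28 of the 29 genes were lower, against 52.9% of all genes, and the median log2 difference was -0.38, against -0.01 over all genes. On limma with Benjamini-Hochberg adjustment over all genes, 6 fell at an adjusted p under 0.05 (20.7%), 0 rose and 23 did not pass. Over all genes 1.56% were called lower and 2.56% higher, and over the 5259 genes at least as bright as the dimmest listed gene 2.76% and 4.37%. This brighter set is matched on its lower limit alone. The list was chosen with earlier results of these data known, so its contrast with all genes is not independent of these data. At an unadjusted p under 0.05, 18 of the 29 were lower and 0 higher, against 10.7% and 10.8% of all genes and 16.7% lower of the brighter set. Both GSI arrays lay below both DMSO arrays for 27 of the 29, where 27.7% of all genes and 38.2% of the brighter set did so, and above them for 1, where 23.7% of all genes did. The genes that fell were Srm and Cad, followed by Mthfd1, Gart, Ppat and Aprt. They act in polyamine, pyrimidine, folate and purine synthesis and in purine salvage. When any 1 of the 4 arrays was left out, limma called 0 of the 29, but also at most 5 lower and 1 higher of all 18193 genes, so these counts are no result about the list.

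**Figure D1:**
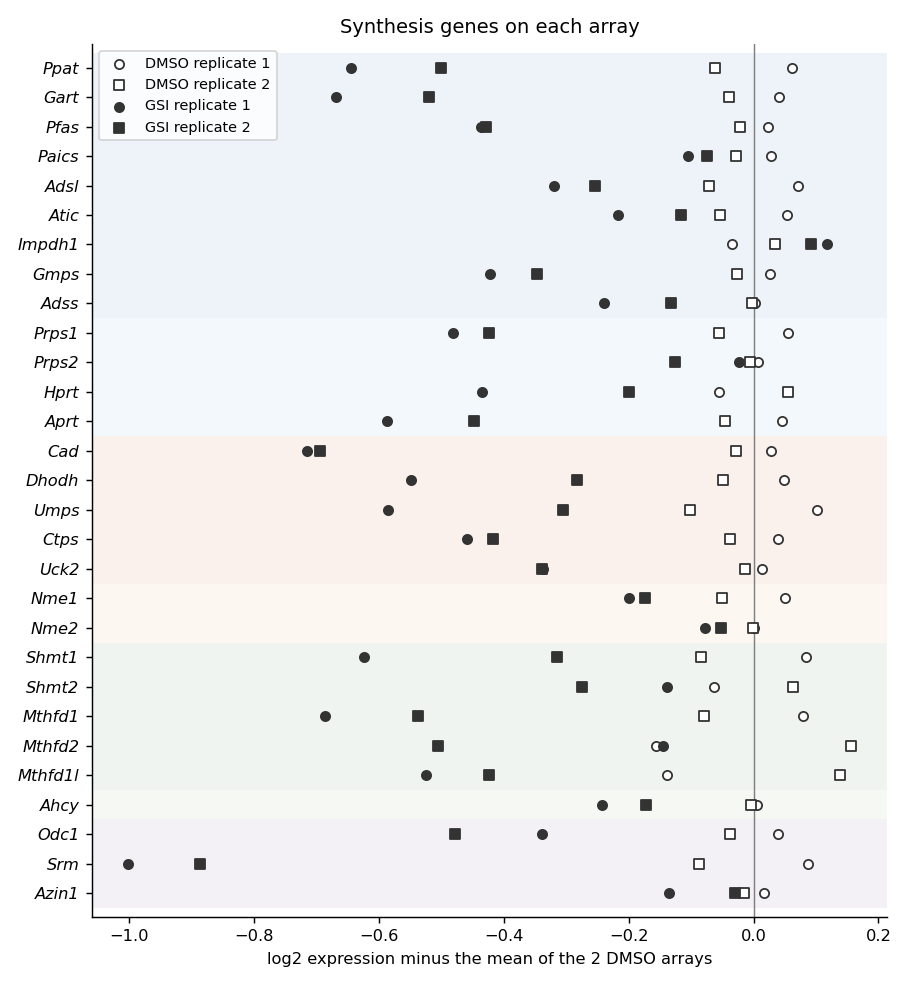
Each of the 29 genes is a row and each array a point, placed on the x axis by its log2 expression minus the mean of the 2 DMSO arrays (open: DMSO, filled: GSI; circle: replicate 1, square: replicate 2), with shading by pathway step. Both GSI points lie left of both DMSO points for 27 genes, right of them for Impdh1 and among them for Mthfd2.

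The purine ring is begun by Ppat, which commits PRPP to the pathway. Ppat read 10.22 and 10.09 with DMSO (replicates 1 and 2, here and below) and 9.51 and 9.65 with GSI. The groups did not overlap, and Ppat fell 1.49-fold (log2 difference -0.57, SE 0.0987, limma adjusted p = 0.0409). Gart, a trifunctional enzyme that catalyses 3 of the following steps, read 10.41 and 10.33 with DMSO and 9.70 and 9.85 with GSI, and fell 1.51-fold (-0.59, SE 0.0953, limma adjusted p = 0.0349). Neither passed among all probe sets tested singly (adjusted p = 0.0753 and 0.0659) or with its probe sets averaged (adjusted p = 0.0708 and 0.0635). Pfas, which acts between the Gart steps, lay just outside the threshold, with 9.22 and 9.18 with DMSO against 8.77 on both GSI arrays (-0.43, SE 0.0824, adjusted p = 0.0508). It passed under 5 of 11 alternative settings (adjusted p over all 11 from 0.00843 to 0.307).

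The later purine steps differed less in size. Paics, a bifunctional enzyme of the middle of the pathway, had a difference of -0.09 with a 95% interval of -0.30 to 0.12. Adsl, which acts both before and after ring closure, differed by -0.29, and Atic, which completes the inosine monophosphate ring, by -0.17 (adjusted p = 0.157 and 0.368). At the branch from inosine monophosphate, Gmps, which makes the guanine nucleotide, read 11.29 and 11.24 with DMSO and 10.84 and 10.92 with GSI (-0.38, adjusted p = 0.0708). Its dimmer probe sets differed by -0.06 and -0.07, with overlapping arrays. With the probe sets of Gmps averaged the difference was -0.17 (limma adjusted p = 0.326). Adss, which opens the adenine branch, differed by -0.19 with an interval of -0.40 to 0.03. Impdh1, the dehydrogenase that feeds Gmps, was the only 1 of the 29 with a higher mean, at 8.46 and 8.53 with DMSO and 8.62 and 8.59 with GSI (0.11, interval -0.10 to 0.31, adjusted p = 0.540). In all, 2 of the 9 measured purine synthesis genes fell (22.2%), and 8 had both GSI arrays below both DMSO arrays (88.9%). Of all genes 1.56% fell and 27.7% had their arrays so placed, and of the brighter set 2.76% and 38.2%.

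Ppat and Paics are neighbours on chromosome 5 that are transcribed on opposite strands, with annotated starts 276 bases apart in the RefSeq annotation of GRCm38.p6. Their log2 differences stood at -0.57 and -0.09. For Paics, 1 of the 2 dimmer probe sets read in the opposite direction (0.15 and -0.16), and for Ppat both dimmer probe sets were lower with GSI (-0.42 and -0.23). The difference between the 2 genes was not tested.

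PRPP itself is made by Prps1 and Prps2, isoforms of PRPP synthetase. Prps1 read 10.46 and 10.35 with DMSO and 9.92 and 9.98 with GSI (-0.45, SE 0.0891, adjusted p = 0.0537), and passed under 4 of 11 alternative settings (adjusted p from 0.00572 to 0.323). Prps2 read 11.20 and 11.19 with DMSO and 11.17 and 11.07 with GSI (-0.07, interval -0.29 to 0.14). The interval of Prps2 does not reach the difference of its isoform, but the difference between the isoforms was not tested, and a dimmer probe set of Prps2 was at -0.34. Purine salvage returns free bases to nucleotides with PRPP. Aprt, which salvages adenine, read 10.41 and 10.32 with DMSO and 9.78 and 9.92 with GSI, and fell 1.43-fold (-0.52, SE 0.0950, limma adjusted p = 0.0464). With every probe set in the test its adjusted p was 0.0859, and its dimmer probe set had a like difference of -0.50. Hprt, which salvages hypoxanthine and guanine, differed by -0.32 with more spread between the GSI arrays, which read 11.12 and 11.36 (adjusted p = 0.181).

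All 5 pyrimidine genes had both GSI arrays below both DMSO arrays, and 1 fell past the threshold. Of all genes 27.7% had their arrays so placed and 1.56% fell, and of the brighter set 38.2% and 2.76%. Cad, the multifunctional enzyme that carries out the opening steps of the ring, read 9.69 and 9.64 with DMSO and 8.95 and 8.97 with GSI. The replicates lay close together in both groups, which did not overlap, and Cad fell 1.63-fold (-0.71, SE 0.0832, limma adjusted p = 0.0148). Its second probe set also passed among all probe sets (-0.72). Dhodh, the mitochondrial enzyme that closes the route to orotate, differed by -0.42, and Umps, which turns orotate into uridine monophosphate, by -0.44 (adjusted p = 0.117 and 0.126). For both, the GSI arrays were the less alike pair, at 7.65 and 7.92 for Dhodh and at 8.79 and 9.07 for Umps. Uck2, which salvages uridine and cytidine, read 11.19 and 11.17 with DMSO and 10.84 on both GSI arrays (-0.34, adjusted p = 0.0851), and each of its 6 probe sets was lower with GSI.

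CTP synthase, the step from uridine to cytidine nucleotides, exists as Ctps and Ctps2, whose differences had opposite signs. Ctps read 10.80 and 10.73 with DMSO and 10.31 and 10.35 with GSI (-0.44, SE 0.0853, adjusted p = 0.0521, and from 0.00439 to 0.318 under the alternatives, 5 of which it passed). Ctps2 read 8.18 and 7.87 with DMSO and 8.96 and 8.70 with GSI, and rose 1.74-fold (0.80, SE 0.145, limma adjusted p = 0.0455). The rise of Ctps2 was carried by its brightest probe set: with its probe sets averaged it was 0.28 (adjusted p = 0.114). The difference between Ctps and Ctps2 was not tested. The nucleoside diphosphate kinase genes Nme1 and Nme2, whose products phosphorylate all nucleoside diphosphates and which are close relatives whose probes may share targets, differed by -0.19 and -0.06 (intervals -0.40 to 0.03 and -0.27 to 0.14).

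**Figure D2:**
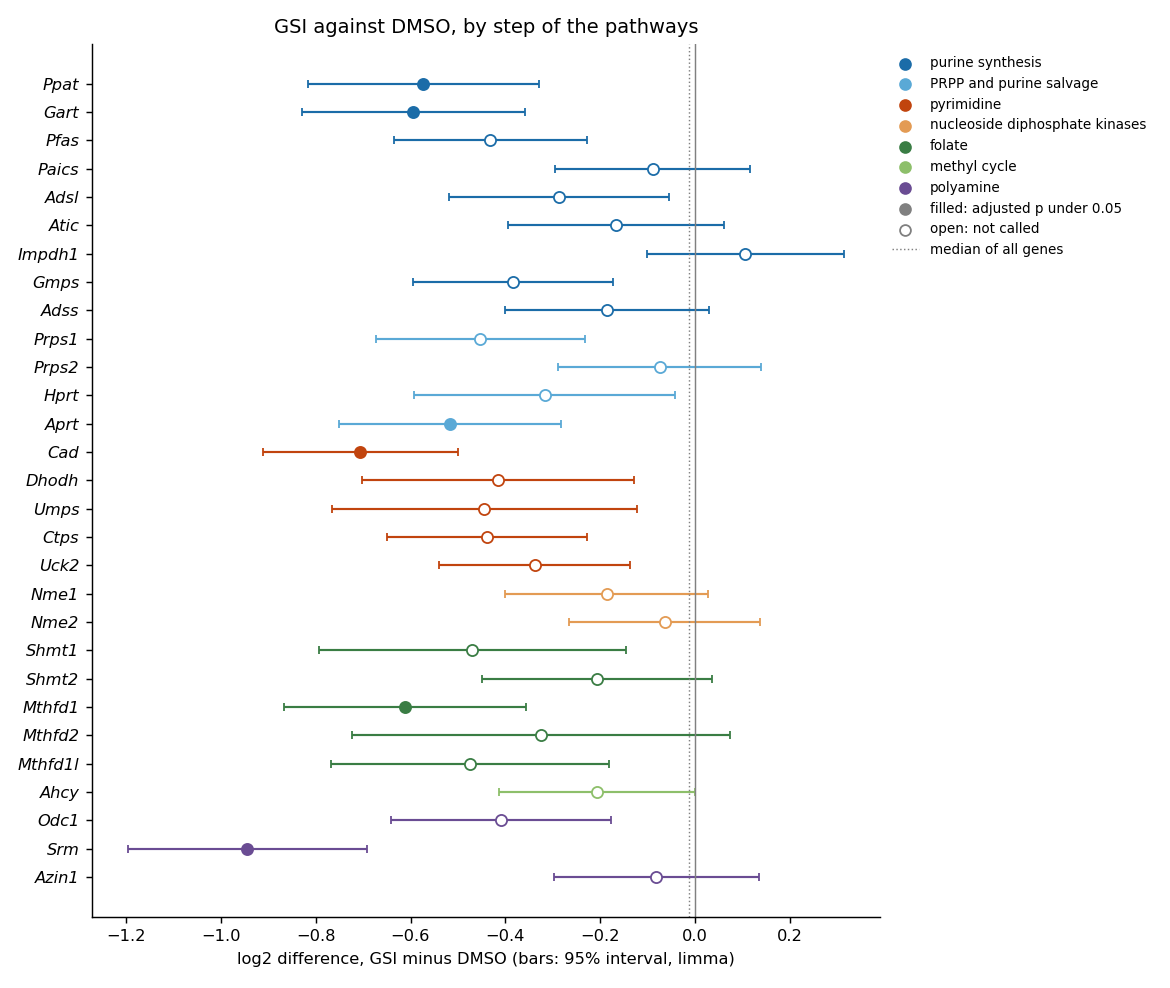
The x axis gives the log2 difference of GSI minus DMSO for each of the 29 genes with its 95% interval from limma, coloured by pathway step, filled where the adjusted p was under 0.05. The interval lies wholly below 0 for 18 genes, and Srm and Cad stand farthest to the left, at -0.94 and -0.71.

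Folate enzymes sit in the cytosol and in mitochondria. In the cytosol, Mthfd1, a trifunctional enzyme that interconverts the folate one-carbon forms, read 10.92 and 10.76 with DMSO and 10.16 and 10.31 with GSI. It fell 1.53-fold (-0.61, SE 0.104, limma adjusted p = 0.0394), and passed with its probe sets averaged (adjusted p = 0.0374) but not among all probe sets (adjusted p = 0.0724). Shmt1, the cytosolic enzyme that takes the one-carbon unit from serine, read 9.62 and 9.45 with DMSO and 8.91 and 9.22 with GSI (-0.47, adjusted p = 0.117). Among the mitochondrial genes, Shmt2 differed by -0.21 and Mthfd1l, which releases formate, by -0.47 (adjusted p = 0.296 and 0.0926). Mthfd2, the mitochondrial dehydrogenase, was the only gene whose groups overlapped, at 10.17 and 10.48 with DMSO and 10.18 and 9.82 with GSI (-0.32, interval -0.72 to 0.07). Ahcy, which clears S-adenosylhomocysteine in the methyl cycle, read 11.38 and 11.37 with DMSO and 11.13 and 11.20 with GSI (-0.21, adjusted p = 0.233).

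Polyamine synthesis held the largest fall of the list. Srm, spermidine synthase, read 11.47 and 11.30 with DMSO and 10.38 and 10.50 with GSI, and fell 1.92-fold (-0.94, SE 0.102, interval -1.20 to -0.69, limma adjusted p = 0.0114). It has 1 probe set and passed among all probe sets too (adjusted p = 0.0229). Odc1, ornithine decarboxylase, the first and rate-limiting step, read 11.21 and 11.13 with DMSO and 10.83 and 10.69 with GSI (-0.41, SE 0.0937, adjusted p = 0.0755). Its 3 probe sets were all lower, from -0.61 to -0.14. Azin1, which protects ornithine decarboxylase from antizyme, differed by -0.08 (interval -0.30 to 0.13), and its GSI arrays read 10.36 and 10.46 against 10.51 and 10.47.

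Probe sets that were not chosen gave a further reading of the same genes on the same arrays. For the 18 genes with several probe sets, 37 of the 38 remaining probe sets were lower with GSI, with a median of -0.33 and a range of -0.72 to 0.15. These share RNA and arrays with the probe sets used and are not independent replicates. In the test of every probe set, 3 of the 67 probe sets of these genes passed, 1 of Srm and 2 of Cad, where 0.446% of all probe sets were called lower and 0.948% higher.

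**Figure D3:**
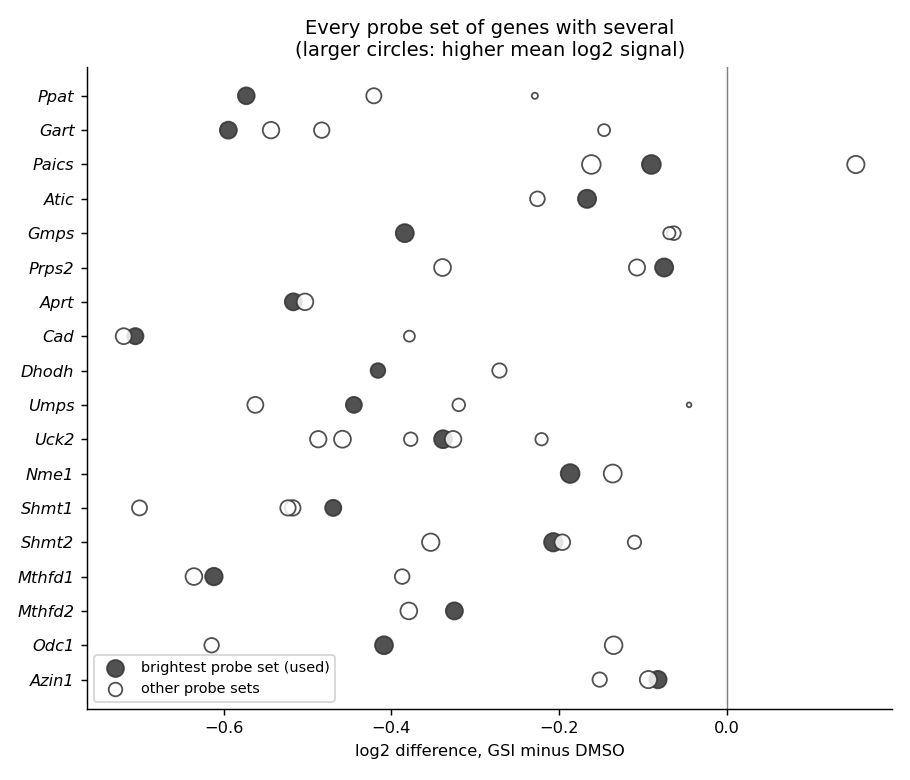
For the 18 genes with more than 1 probe set, every probe set is placed by its log2 difference of GSI minus DMSO; filled circles are the brightest, and circle size grows with mean log2 signal. Only 1 probe set, of Paics, lies above 0 (0.15), and the dimmest circles of Umps and Ppat lie nearer 0 than the brightest.

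Replicates carried a small difference of their own. Of the 29 genes, 5 were higher on the second DMSO array than on the first, with a median log2 difference of -0.06 between them. On the second GSI array 23 were higher than on the first, with a median of 0.07. Of all 18193 genes, 8036 were higher on the second DMSO array and 8346 on the second GSI array, with medians of -0.02 and -0.01. The listed genes thus shared a shift between replicates that was larger than over all genes. Without GSI replicate 1 the median was -0.31, and without GSI replicate 2 it was -0.42.

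Related genes outside the list were compared by 4 further lists. Over all genes limma called 1.56% lower and 2.56% higher. Of 34 genes of folate, serine, glycine and methionine handling 4 fell (11.8%) and 0 rose, with a median of -0.10. They were Aldh1l2, a mitochondrial folate dehydrogenase (-1.07, adjusted p = 0.0382), Cth, which makes cysteine (-0.72, adjusted p = 0.0298), Gcsh of the glycine cleavage system (-0.61, adjusted p = 0.0272) and Fpgs, which adds glutamates to folate to keep it in the cell (-0.45, adjusted p = 0.0475), all by limma. Aldh1l2 was dim, at 5.21 and 5.73 with DMSO and 4.33 and 4.48 with GSI, so its size is uncertain. The folate carrier gene Slc19a1 differed by -0.54 (adjusted p = 0.0530). Phgdh, which starts serine synthesis, differed by 0.14 (adjusted p = 0.419), and Psat1 and Psph, the steps after it, by -0.32 and -0.36 (adjusted p = 0.109 and 0.120).

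Of 34 genes of nucleotide salvage and breakdown 2 fell (5.88%) and 1, Ctps2, rose (2.94%), against 1.56% and 2.56% of all genes. The falls were Nme6, of the diphosphate kinase family (-0.57, adjusted p = 0.0455), and Guk1, guanylate kinase (-0.55, adjusted p = 0.0437), by limma. Of 12 genes of deoxynucleotide supply 1 fell (8.33%, against 1.56% of all genes), a share that rests on 1 gene. It was Dctd, which deaminates deoxycytidine monophosphate, at 7.53 and 7.41 with DMSO and 6.75 and 6.83 with GSI (-0.68, limma adjusted p = 0.0212). The ribonucleotide reductase genes Rrm1 and Rrm2, which make deoxynucleotides for replication, differed by -0.03 and 0.06, and their arrays overlapped. Tyms, the thymidylate synthase gene, and Rrm2b read higher with GSI, by 0.48 and 0.19, and did not pass (limma adjusted p = 0.236 and 0.255). The DMSO arrays of Tyms lay 0.59 apart. Tyms and Rrm2b were the 2 of these 12 genes with both GSI arrays above both DMSO arrays, and 4 had both below. The medians of these lists were -0.05 and -0.02, close to the median of all genes. Of 11 markers of S phase and division 0 passed limma and 0 had an unadjusted p under 0.05, with differences from -0.20 to 0.10. At that unadjusted p 10.7% of all genes were lower and 10.8% higher. Means of 9 of the 11 markers were lower with GSI (81.8%, against 52.9% of all genes). Both GSI arrays lay below both DMSO arrays for 4 of them and above for 1. The share below was 36.4%, against 27.7% of all genes and 38.2% of the brighter set.

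Of 20 genes of polyamine breakdown and use, limma called 0, with 3 lower and 6 higher at an unadjusted p under 0.05, where 10.7% and 10.8% of all genes passed. Smox and Sat1, whose products oxidise and acetylate polyamines, read higher with GSI by 0.38 and 0.28, and the transporter gene Atp13a3 by 0.35 (adjusted p = 0.0899, 0.198 and 0.0980). The other higher genes were Atp13a2, Adi1 and Oaz2, with differences of 0.40, 0.32 and 0.23 (limma adjusted p = 0.127, 0.0969 and 0.211). The 3 lower genes were Enoph1, Mri1 and Dohh, with differences of -0.43, -0.32 and -0.26 (adjusted p = 0.0823, 0.171 and 0.177). Oaz1, the antizyme that targets ornithine decarboxylase for breakdown, differed by 0.03 (interval -0.18 to 0.24). Eif5a, whose product carries the spermidine-derived residue hypusine, differed by -0.18 (adjusted p = 0.278).

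**Figure D4:**
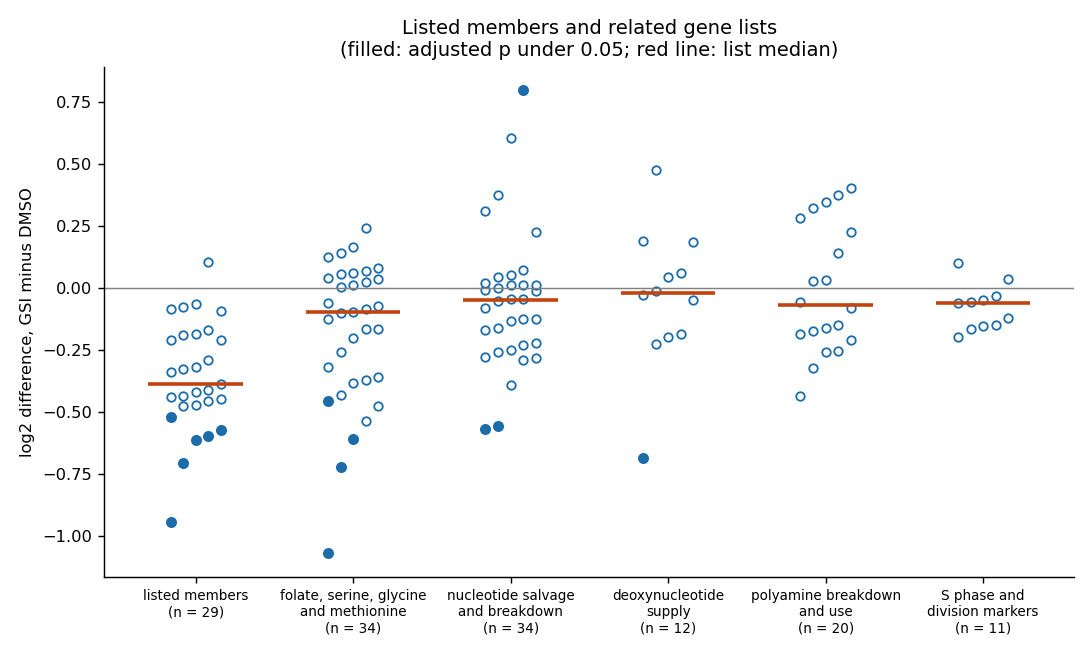
Each point is a gene, grouped by list on the x axis, with the log2 difference of GSI minus DMSO on the y axis, filled where the adjusted p was under 0.05, and a line at each list's median. The listed synthesis genes have a median of -0.38, and the medians of the other 5 lists lie between -0.10 and -0.02.

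Myc, given beside these genes as a known regulator of many of them, read 10.77 and 10.74 with DMSO and 10.02 and 10.25 with GSI, and fell 1.54-fold (-0.62, SE 0.105, limma adjusted p = 0.0390). Its part in the lower values was not tested. Windows of 300 bases around annotated starts (250 before, 50 after) were found in the RefSeq tables of GRCm38.p6 for 25 of the 29 genes. There were none for Pfas, Dhodh, Srm and Azin1. The motifs searched, on both strands, were CACGTG, the E-box that Myc binds with Max and which reads the same on either strand, and GTGGGAA, which the Notch partner RBPJ binds. CACGTG stood in the windows of 3 of the 25 genes (12.0%), against 10.2% of measured genes with a window and 12.9% of those in the brighter set. GTGGGAA stood in 1 of the 25 (4.0%), against 7.40% of measured genes. At 25 genes these shares are near the background and are no result about the list. The matches are shown because they are the only ones among these genes, 5' to 3' on the gene's strand and before its start, with the motif in capitals. The gene with GTGGGAA is Shmt1, where it lies on the opposite strand and reads TTCCCAC, and Nme1 has a second annotated start whose window holds another CACGTG.
Atic (chr1:71557122-71557155, plus strand): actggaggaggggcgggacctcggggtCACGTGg
Paics (chr5:76951072-76951131, plus strand): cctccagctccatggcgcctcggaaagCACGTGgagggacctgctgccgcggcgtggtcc
Nme1 (chr11:93968273-93968317, minus strand): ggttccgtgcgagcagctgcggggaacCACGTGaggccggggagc
Shmt1 (chr11:60811406-60811466, minus strand): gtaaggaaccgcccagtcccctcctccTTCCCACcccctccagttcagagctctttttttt

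None of the 5 genes that fell and had a window held either motif in it, which says only that these letters are not in these windows. Their last 70 bases before the start are given because these genes fell together, with each CG in capitals. They hold between 5 and 11 CG pairs each. Over the whole window the 25 genes had a median of 19.5 CG pairs and 60.0% G and C, against 23.0 pairs and 61.7% in the brighter set and 17.0 pairs and 58.7% in all measured genes, and lay between the medians of those sets.
Cad (chr5:31054710-31054779, plus strand): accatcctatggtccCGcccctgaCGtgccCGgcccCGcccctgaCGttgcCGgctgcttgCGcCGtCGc
Ppat (chr5:76951579-76951648, minus strand): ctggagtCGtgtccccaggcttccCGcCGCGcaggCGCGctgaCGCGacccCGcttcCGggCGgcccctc
Gart (chr16:91646973-91647042, minus strand): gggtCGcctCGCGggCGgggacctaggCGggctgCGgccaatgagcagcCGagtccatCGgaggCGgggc
Mthfd1 (chr12:76255162-76255231, plus strand): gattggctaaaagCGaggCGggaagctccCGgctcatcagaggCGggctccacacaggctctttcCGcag
Aprt (chr8:122576908-122576977, minus strand): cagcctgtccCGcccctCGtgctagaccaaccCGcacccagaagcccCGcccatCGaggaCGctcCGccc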

How the data were processed

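The deposited values were log2 expression, made by the authors with RMA, per the submitters' processing notes (version not given in the sources used here). RMA corrects background, normalizes between arrays and compresses differences of dim probe sets. Control probe sets (64) took no part in any test. Of the other 45037, 34945 were paired with 1 gene symbol by the platform annotation, and 932 with several and 9160 with none stayed out of gene-level tests. The brightest such probe set by mean over all arrays stood for a gene, under its current RefSeq symbol (GRCm38.p6). Groups came from the sample titles. The test was limma 3.58.1 under R 4.3.3, two-sided, with default lmFit and eBayes and group as the only term (5.80 total degrees of freedom, 2 of them residual), and Benjamini-Hochberg adjustment over 18193 genes. The number of arrays limits the precision. Members, lists and motifs were chosen with earlier results of these data known. Every measured member is named, and of each related list up to 4 called genes. Slc19a1, Phgdh, Psat1, Psph, Rrm1, Rrm2, Rrm2b, Tyms, Eif5a and Itgam were chosen after their values were seen. So were Smox, Sat1, Atp13a2, Atp13a3, Adi1, Oaz1, Oaz2, Enoph1, Mri1 and Dohh. On simulated data for this comparison and 18193 genes, limma recovered 51.9% of log2 changes of 0.5 and 100% of changes of 1. Of its 179 calls there 17 were false, a share above the 0.05 aimed at. In the measured data Itgam, a dim myeloid marker, differed by 1.05 and did not pass (limma adjusted p = 0.0561). The simulation drew each gene with its SD after shrinkage by limma and with noise independent of other genes. It therefore held no shift shared by genes between replicates, as the listed genes had. The simulated recovery may be too high, for genes with much spread and for others. Alternatives tried, with their effect, are in the closing section.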

Additional observations from a re-analysis of the deposited data

How the results depend on the processing

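The main test called 6 of the 29 genes lower and 0 higher. The count was 2 with every probe set tested on its own, 15 with dim genes left out and 18 with an intensity trend and robust prior, while the mean of probe sets, centred arrays and cyclic loess gave 8, 8 and 9. The share of all genes called lower moved as well, from 1.56% to 0.446% with every probe set, 9.11% with dim genes left out, 4.94% with the trend and 2.08%, 2.11% and 2.00% with the other 3. All 6 genes stayed called with dim genes left out, the trend and robust prior, centring and loess, Srm and Cad alone with every probe set, and Srm, Cad, Mthfd1 and Aprt as the mean of probe sets. Over all 11 alternatives the adjusted p ran from 0.000302 to 0.181 for Srm, 0.000767 to 0.195 for Cad, 0.00279 to 0.298 for Mthfd1, 0.00247 to 0.278 for Gart, 0.00381 to 0.298 for Ppat and 0.00452 to 0.310 for Aprt. With the replicate block the count was 0, and the lowest adjusted p among the 29 was 0.0582; over all genes the block left 70 lower and 147 higher calls against 284 and 466. The replicate differences of the 2 groups correlated at 0.0851 over all genes and -0.561 over the 29, across genes, which are not independent, and the numbers were not taken to pair the samples. Leaving out each array in turn gave 0 calls each time (over all genes 5 lower and 1 higher without either DMSO array, 0 without either GSI array) and medians from -0.42 to -0.31, with a residual degree of freedom of 1 and the lone array assumed to vary like the other group. The median of -0.38 otherwise lay between -0.39 and -0.34 in the alternatives, and 28 of 29 means were lower in each. Of the 8 related genes named as changed and Myc, 1 (Dctd) passed with every probe set and 0 with the block or without an array; these were added after the data were seen.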

Other observations

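Some probe sets of the listed genes also match a second gene in the platform annotation, so they were left out above. The 3 probe sets paired with Sms, spermine synthase, and its pseudogene Sms-ps were all lower with GSI, by -0.38, -0.70 and -0.42 on the log2 scale. The dimmest of them passed limma over every probe set (adjusted p = 0.0322). That probe set read 6.24 and 6.20 with DMSO and 5.48 and 5.55 with GSI. The brightest read 10.41 and 10.28 with DMSO and 9.96 and 9.97 with GSI (adjusted p = 0.148). The probe set shared by Prps1 and Prps1l3 differed by -0.34 (adjusted p = 0.263).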
